A study of Mus musculus with 8 samples.

Results

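The 9 genes described are S100a10, which encodes p11, its scaffold Ahnak, and the annexin genes Anxa2, Anxa3, Anxa4, Anxa5, Anxa6, Anxa7 and Anxa11, out of 39017 genes in the count table. They were chosen by gene symbol, with earlier results of these data known, and each symbol matched 1 Ensembl gene. RNA was pulled down from hippocampus by translating ribosome affinity purification (TRAP), in which ribosomes carrying a tagged protein, here L10 fused to EGFP, are captured with the RNA bound to them, and was sequenced as 8 libraries, each from 4 pooled hippocampi. The 3 wild-type (WT) libraries came from mice with the CCK Cre driver and the L10-EGFP transgene and without SMARCA3 fl/fl, and littermates with CCK Cre, L10-EGFP and SMARCA3 fl/fl gave the 5 conditional knockout (cKO) libraries. Both groups therefore carry Cre and the tag, and the design text names no line without them. Cre under the control of Cck also acts in cells that expressed Cck only earlier in life, ages are not given in the sources used here, and nothing says how the pools relate to one another, so p-values measure the spread between these pools. RNA from before the pull-down was not analysed here.

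p11 is a member of the S100 family of small EF-hand proteins that has lost the ability to bind calcium, and it pairs with annexin A2 in a complex that sits at membranes and in the nucleus. The complex binds SMARCA3, a chromatin remodeller encoded by Hltf, and the giant scaffold protein AHNAK, and p11 carries serotonin receptors and ion channels to the cell surface. Annexins are a family of proteins that bind acidic phospholipids in the presence of calcium and act in membrane repair, vesicle traffic and signalling. In the brain p11 is best known for its part in responses to antidepressants and stress. The comparison of cKO with WT asks whether RNA of p11, its partners and its family differs in CCK cells that lack SMARCA3, the nuclear partner of the complex.

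Of the 9 genes, S100a10, Anxa5, Anxa6, Anxa7, Anxa11, Ahnak and Anxa4 were detected in every library, with Ahnak and Anxa4 at low levels. Anxa2 and Anxa3 were too low to test. None of the 7 genes tested passed an adjusted p under 0.05, and 0% of all 17654 genes did. Anxa5 came closest: its 5 cKO values were all under its lowest WT value, and the cKO mean was 0.522 times the WT mean, with an adjusted p of 0.499 by edgeR. S100a10 itself differed by less than the spread between libraries.

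The start regions of 3 of the 9 genes are shown because of their place in the results: Anxa5 is the gene whose groups did not overlap, and Anxa2 and Ahnak are the direct partners of p11 and were low. Each sequence runs from 250 bases before to 50 bases after a RefSeq start site of build GRCm38.p6, 5′ to 3′ on the strand of the gene, and capitals mark matches on either strand to the TATA box letters TATAAA, the box known as CCAAT, and the GC box letters GGGCGG, which read CCGCCC when the match is on the opposite strand. Anxa5 is at chr3:36475838-36476137 on the minus strand, Anxa2 at chr9:69453433-69453732 on the plus strand and Ahnak at chr19:8989034-8989333 on the plus strand.
Anxa5: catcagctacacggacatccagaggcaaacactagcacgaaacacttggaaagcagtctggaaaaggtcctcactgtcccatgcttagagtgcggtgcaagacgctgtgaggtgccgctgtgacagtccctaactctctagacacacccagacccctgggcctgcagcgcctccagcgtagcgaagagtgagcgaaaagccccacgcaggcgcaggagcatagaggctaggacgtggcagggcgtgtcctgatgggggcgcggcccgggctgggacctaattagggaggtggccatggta
Anxa2: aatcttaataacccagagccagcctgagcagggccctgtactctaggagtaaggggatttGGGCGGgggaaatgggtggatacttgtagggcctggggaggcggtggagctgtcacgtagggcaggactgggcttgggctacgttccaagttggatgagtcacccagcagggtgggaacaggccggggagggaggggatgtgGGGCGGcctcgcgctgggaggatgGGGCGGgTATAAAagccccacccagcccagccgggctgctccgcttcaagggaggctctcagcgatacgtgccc
Ahnak: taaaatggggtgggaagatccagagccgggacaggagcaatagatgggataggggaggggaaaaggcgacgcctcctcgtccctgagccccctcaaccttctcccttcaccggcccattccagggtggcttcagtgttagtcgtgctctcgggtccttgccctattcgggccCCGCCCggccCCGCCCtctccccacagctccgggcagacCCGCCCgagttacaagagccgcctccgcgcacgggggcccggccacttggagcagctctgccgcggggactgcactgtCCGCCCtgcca
The Anxa5 window holds none of the 3 motifs and 16 CG pairs. The Anxa2 window holds 1 TATA box match, 3 GC box matches and 13 CG pairs, and the Ahnak window holds 4 GC box matches and 22 CG pairs. No 2 matches overlap. Of all 32851 RefSeq windows of this kind, 13.6% hold the TATA box letters, 37.4% hold the letters CCAAT and 35.7% hold the GC box letters, and the median number of CG pairs is 7. A match is a run of letters only. Start windows were found for 6 of the 9 genes, and S100a10, Anxa3 and Anxa6 had no entry.

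Total counts ran from 31760155 to 61823651 per library. Hltf, the deleted gene (chromosome 3, 20057811 to 20118490), was at 8.39 to 13.7 CPM in WT and at 2.83 to 5.10 CPM in 4 cKO libraries, where CPM is the count divided by the library's trimmed-mean scaled total, in the usual unit. Over all 8 libraries its log2 difference was -0.93 (SE 0.39; adjusted p = 0.558 by edgeR). The library labelled cKO 5 had 11.4 CPM of Hltf, within the WT range and against its label, and it also stood apart on the first principal component (31.1% of variance), as cKO 4 did on the second (22.3%). Fold changes over the 6 libraries without these 2 are therefore also given where they turned in sign or moved by more than 1.5 times. Hltf was at -1.21 (SE 0.24; adjusted p = 0.247 by edgeR) over those 6. The 6 neuronal markers, Snap25 the most abundant, summed to 16660 to 24030 CPM in each library, and Cck, the driver gene, was at 414 to 837 CPM. Defining genes of other cell types were near 0: Cldn5, a defining endothelial gene, had 0 counts in 7 of 8 libraries and 1 in cKO 3, Higd1b of mural cells had 0 in all 8, Kcnj8 had 1 count in WT 3 and 0 elsewhere, and Tmem119 of microglia had 0 to 13. Over all 17654 genes tested with edgeR, 0 (0%) passed an adjusted p under 0.05 and 1540 (8.72%) had an unadjusted p under 0.05. DESeq2 called 68 genes higher and 40 lower, and limma-voom called 3 higher and 1 lower, with 0 of the 9 genes among them (DESeq2 gave no adjusted p for Ahnak, Anxa2, Anxa3 and Anxa4).

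S100a10 (ENSMUSG00000041959, mm10 chromosome 3, 93555080 to 93564643, plus strand) gave 183, 245 and 304 counts in WT 1, 2 and 3, which is 4.87, 4.88 and 6.27 CPM. The cKO libraries 1, 2, 3 and 4 gave 340, 420, 263 and 191 counts (6.51, 6.71, 8.20 and 4.12 CPM), and the library labelled cKO 5 gave 85 counts (2.31 CPM). The 3 cKO libraries numbered 1 to 3 thus lay above every WT library, and cKO 4 and the library labelled cKO 5 lay below every WT library. S100a10 averaged 5.34 ± 0.805 CPM over the WT libraries (SD, n = 3) and 5.57 ± 2.34 over the cKO libraries (SD, n = 5). S100a10 had a fitted log2 fold change of 0.06 with SE 0.37, an approximate 95% interval from -0.75 to 0.88 and, by edgeR, an adjusted p of 0.980, and the two-sided exact permutation test over all 56 assignments of the group labels gave 0.929. The interval is wide enough to hold both a rise and a fall of more than 1.5 times, so a p that misses the threshold does not show that p11 RNA was equal. In bulk pull-downs such as these, fewer cells of a type and less RNA per cell cannot be told apart.

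The result for S100a10 rests on which cKO libraries are counted. With cKO 4 and the library labelled cKO 5 set aside, all 3 cKO values lay above all 3 WT values. Over those 6 libraries edgeR put S100a10 at 0.41 (SE 0.24) on the log2 scale, with an adjusted p of 0.618. At an adjusted p under 0.05 that fit called 0.0575% of 17381 genes and none of the 9. Groups separated in this direction at 7.58% of the 17354 genes examined over the same 6 libraries, so the separation is a common one. The 2 libraries in which S100a10 was lowest were also the 2 with the lowest sum of the 8 mural markers, 28.5 CPM in cKO 4 and 21.1 CPM in the library labelled cKO 5, against 56.5 to 73.4 CPM in WT and 76.7 to 85.2 CPM in cKO 1 to 3. Nearly all of that sum was Rgs5, with Kcnj8 and Higd1b at or near 0 in every library. The 8 meningeal fibroblast markers, mostly Dcn, summed to 55.9 to 69.4 CPM in WT, 82.7 to 99.8 CPM in cKO 1 to 3, 61.2 CPM in cKO 4 and 41.3 CPM in the library labelled cKO 5. Genes of the CCK interneuron list were mixed, and their counts are given here without scaling for depth. Slc17a8 had 12 counts (cKO 4) and 22 counts (cKO 5). Its WT counts were 81 to 170, and cKO 1 to 3 had 106 to 158. Gad1 had 1006 and 564 counts in the same order. Its WT counts were 920 to 2169, and cKO 1 to 3 had 1275 to 3138. Gad2 had 2296 and 2049, with 2972 to 4716 in WT and 2202 to 5153 in cKO 1 to 3. Vip had 142 and 208, with 283 to 370 in WT and 80 to 475 in cKO 1 to 3. Adarb2 had 957 and 379, with 801 to 2122 in WT. The lowest WT counts of Gad1 and Adarb2 were in WT 1, with 37239119 counts in total against 47461371 in cKO 4. Per total count both genes were lower in cKO 4 than in WT 1. Slc32a1 had 302 and 71, with 125 to 258 in WT. Cnr1 had 7428 and 4932, with 5757 to 6631 in WT, and Htr3a had 296 and 149, with 279 to 466. The sum of that list, mostly Cck, was highest in cKO 4 at 1106 CPM. For cKO 5 it was 918 CPM, within the WT range. The part of these markers in the S100a10 values was not tested.

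Ahnak (ENSMUSG00000069833, chromosome 19, 8989284 to 9076914, plus strand), the scaffold that binds the p11 and annexin A2 complex and calcium channel subunits, gave few counts for a gene with 19938 bases of exon. It had 124, 51 and 84 counts in WT 1, 2 and 3, or 3.30, 1.02 and 1.73 CPM. Counts in cKO 1 to 4 were 37, 77, 63 and 172 (0.709, 1.23, 1.96 and 3.71 CPM), and the library labelled cKO 5 held 8 (0.217 CPM). The highest and the lowest of the 8 values were both in the cKO group, and the groups overlapped. Ahnak averaged 2.02 ± 1.17 CPM over the WT libraries (SD, n = 3) and 1.57 ± 1.36 over the cKO libraries (SD, n = 5). For Ahnak the log2 fold change came to -0.36 (SE 0.74; approximate 95% interval -1.98 to 1.26), with adjusted p = 0.928 by edgeR and 0.518 by exact permutation. The fitted coefficient of variation between libraries was 0.708, against 0.370 for S100a10. Without WT 1 the sign turned, to 0.19, and without cKO 4 the value was -0.97. Without the library labelled cKO 5 it was -0.08, and over the 6 libraries -0.64 (SE 0.53), so a direction for Ahnak cannot be read from these libraries.

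Anxa2 (ENSMUSG00000032231, chromosome 9, 69453620 to 69491795, plus strand), which encodes the partner that p11 binds directly, had 0, 12 and 5 counts in WT 1, 2 and 3. It had 6, 2, 0, 6 and 0 counts in cKO 1, 2, 3, 4 and 5. The sums were 17 counts in WT and 14 in cKO, and 3 libraries had none. A count of 0 allows up to 3 counts, which is 0.0798 CPM in WT 1, 0.0935 CPM in cKO 3 and 0.0815 CPM in the library labelled cKO 5, the libraries with none. These limits cover counting error only. S100a10 gave 732 counts over the same 3 WT libraries, and its mean WT level per kilobase of exon was 4.40 CPM per kb against 0.0306 ± 0.0321 CPM per kb (SD, n = 3) for Anxa2. RNA of p11 was thus measured in each pull-down while RNA of its annexin partner was close to the limit of detection in both groups. Gm16144, on the opposite strand with 98 bases of shared exon, had 0 counts in all 8 libraries.

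**Figure D1:**
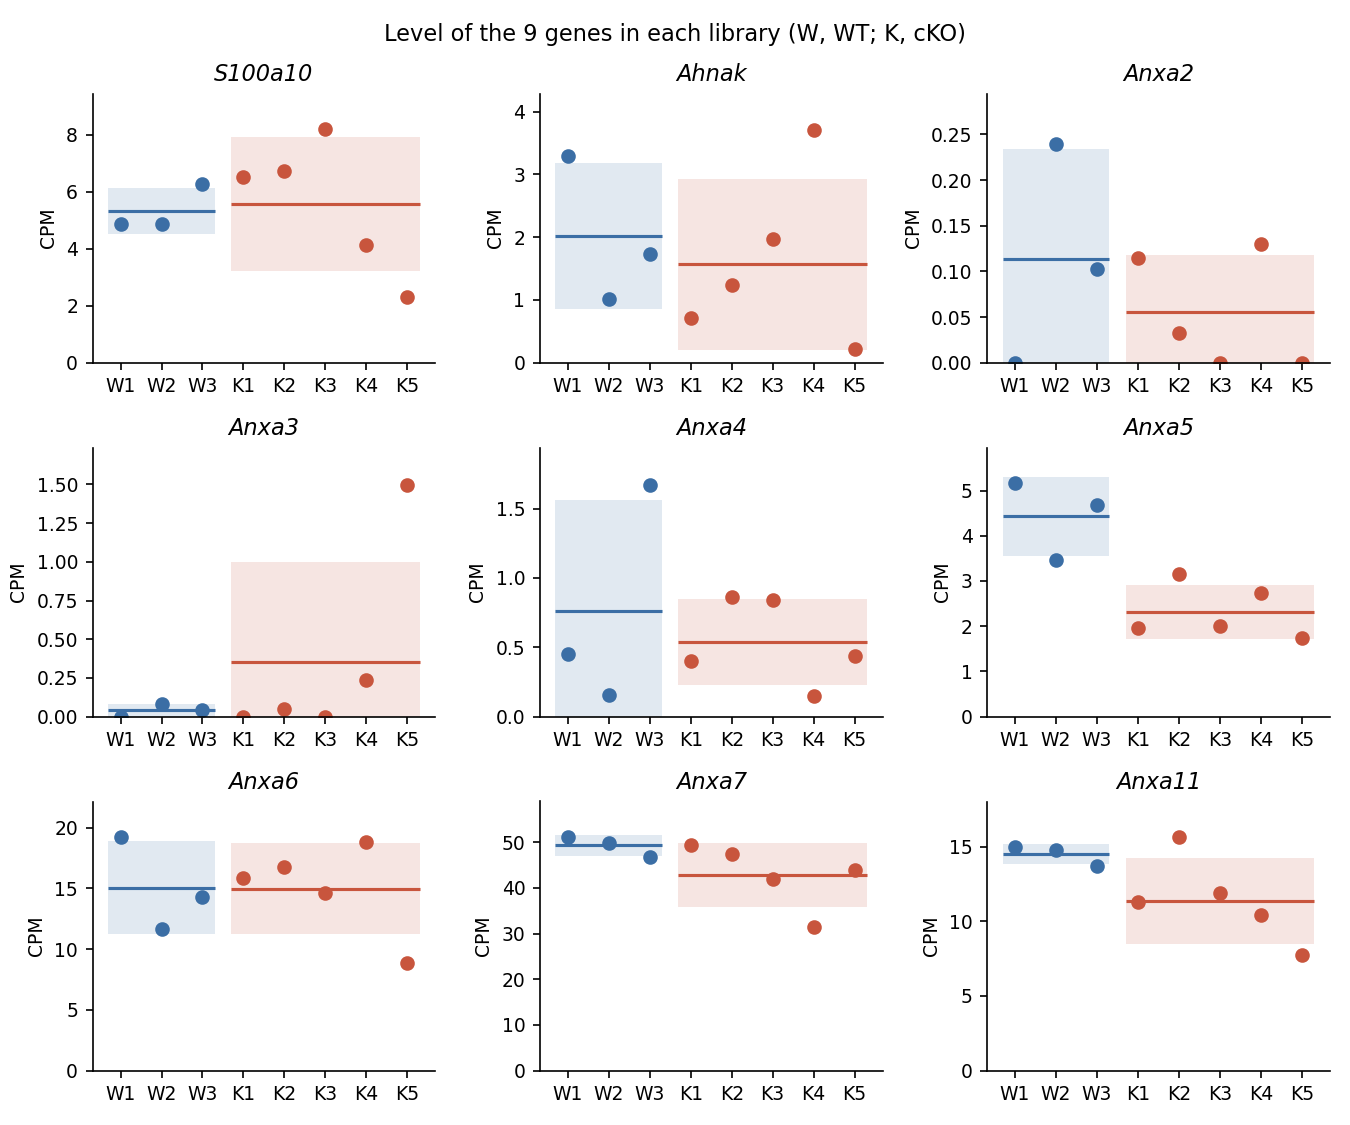
Level of each of the 9 genes in CPM (vertical axes, linear and starting at 0) in the 3 WT libraries (W1 to W3, blue) and the 5 cKO libraries (K1 to K5, red), with 1 point per library; lines are group means and bands are 1 SD, stopped at 0. For Anxa5 every red point lies below every blue point, while for S100a10 the red points lie on both sides of the blue ones, from 2.31 to 8.20 CPM.

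Anxa5 (ENSMUSG00000027712, chromosome 3, 36448923 to 36475894, minus strand) encodes annexin A5, which binds phosphatidylserine exposed on membranes. Its 194, 174 and 227 counts in WT 1, 2 and 3 stand for 5.16, 3.47 and 4.68 CPM. Its 102, 197, 64, 127 and 64 counts in cKO 1 to 5 stand for 1.95, 3.15, 1.996, 2.74 and 1.74 CPM. No cKO value reached a WT value, and the nearest pair was cKO 2 at 3.15 CPM and WT 2 at 3.47 CPM. Anxa5 averaged 4.44 ± 0.872 CPM over the WT libraries (SD, n = 3) and 2.32 ± 0.601 over the cKO libraries (SD, n = 5). On the log2 scale edgeR gave -0.93 (SE 0.32; approximate 95% interval -1.63 to -0.24), with an adjusted p of 0.499 and an unadjusted p of 0.0132. The exact permutation p was 0.0357, where 0.0179 is the smallest these libraries allow.

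Anxa5 was the 1 gene of the 7 tested with an unadjusted p under 0.05 and the 1 with separate groups. Among all genes tested 3.7% had such a p and were lower in cKO (5.02% were higher), and 7.19% had separate groups, 3.82% with all cKO libraries below WT, so 1 of 7 is a small count to set against that background. With cKO 4 and the library labelled cKO 5 set aside, Anxa5 was at -0.90 (SE 0.32) with adjusted p = 0.426 by edgeR, and 7.51% of genes were separated in that direction there. Over 18 alternatives in processing the value lay between -1.08 and -0.81 and the adjusted p between 0.180 (DESeq2) and 0.951. The direction was therefore the same in each of these, and the call was absent in each. The summed markers of endothelial cells (10.2 to 10.98 CPM in WT, 8.47 to 16.8 CPM in cKO), mural cells, microglia (10.8 to 18.7 and 7.90 to 15.3 CPM) and astrocytes (328 to 436 and 335 to 505 CPM) overlapped between the groups. Those of oligodendrocytes lay higher in each cKO library (85.3 to 110 CPM) than in any WT library (73.4 to 78.2 CPM). So did those of their precursors and the 4 glutamatergic markers. The summed CCK interneuron markers overlapped (761 to 932 CPM in WT, 879 to 1106 CPM in cKO). Of the 9 genes in that list, 4 had a log2 fold change above 0 and 5 below, with a median of -0.33. The part of any of these markers in the Anxa5 values was not tested.

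Anxa7, Anxa6 and Anxa11 were the annexins with the most counts. Anxa7 (ENSMUSG00000021814, chromosome 14, 20455260 to 20480133, minus strand), which encodes an annexin linked to membrane fusion in secretion, was at 51.2, 49.8 and 46.9 CPM in WT 1, 2 and 3. It was at 49.4, 47.4, 41.9, 31.4 and 43.9 CPM in cKO 1 to 5. The WT libraries lay close together and cKO 4 lay lowest, and the fitted log2 difference was -0.20 (SE 0.15; adjusted p = 0.746 by edgeR). The approximate 95% interval from -0.53 to 0.12 is the narrowest of the 7. Without cKO 4 the difference was -0.11, and over the 6 libraries -0.098 (SE 0.12).

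Anxa11 (ENSMUSG00000021866, chromosome 14, 25842156 to 25886804, plus strand) encodes an annexin with a long disordered tail that tethers RNA granules to lysosomes. Its levels were 14.97, 14.8 and 13.7 CPM in WT 1, 2 and 3 and 11.3, 15.6, 11.9, 10.4 and 7.71 CPM in cKO 1 to 5. Of the cKO libraries, 4 lay below all WT libraries and cKO 2 lay above them. Its log2 difference was -0.35 (SE 0.22), with adjusted p = 0.694 by edgeR and 0.143 by exact permutation. Over the 6 libraries it was -0.17 (SE 0.18), smaller by more than 1.5 times. The antisense gene Anxa11os, which shares 113 bases of exon, had 0 to 2 counts.

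Anxa6 (ENSMUSG00000018340, chromosome 11, 54979108 to 55033445, minus strand) encodes the annexin with a duplicated core. It was at 19.2, 11.7 and 14.3 CPM in WT 1, 2 and 3 and at 15.9, 16.7, 14.6, 18.8 and 8.88 CPM in cKO 1 to 5. The group means, 15.1 ± 3.86 CPM (SD, n = 3) and 14.99 ± 3.74 CPM (SD, n = 5), were closer than the spread within either group. The log2 difference was -0.006 (SE 0.25; approximate 95% interval -0.56 to 0.55; adjusted p = 0.996 by edgeR), and over the 6 libraries it was 0.061.

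Anxa4 and Anxa3 were low and uneven. Anxa4 (ENSMUSG00000029994, chromosome 6, 86736840 to 86793584, minus strand), an annexin found mostly in epithelia, had 17, 8 and 81 counts in WT 1, 2 and 3 and 21, 54, 27, 7 and 16 in cKO 1 to 5. The WT library with 81 counts is higher than any cKO library and the one with 8 counts is lower than all but one. Its log2 difference was -0.50 (SE 0.84; adjusted p = 0.908 by edgeR), and without WT 3 it was 0.82 and over the 6 libraries -0.13. Anxa3 (ENSMUSG00000029484, chromosome 5, 96793339 to 96845966, plus strand), in brain a gene of microglia and vessels, had 0, 4 and 2 counts in WT and 0, 3, 0, 11 and 55 in cKO 1 to 5. Of its 69 cKO counts, 55 came from the library labelled cKO 5, at 1.49 CPM. The 11 microglial markers summed to 14.02 CPM in that library, within the WT range, with Tmem119 at 0 counts, and the 10 endothelial markers summed to 8.47 CPM, the lowest of all libraries. Other lists were highest there: the 10 choroid plexus and ependyma markers, led by Kl, summed to 82.98 CPM against 30.9 to 42.8 CPM in WT, with Tmem212 at 0 in every library, and the oligodendrocyte precursor markers summed to 9.07 CPM against 3.56 to 4.41 CPM in WT. Pdgfrb, a mural gene, had 80 counts there and 4 to 52 in the other libraries, while the mural sum was lowest. The part of these markers in the Anxa3 counts was not tested.

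Levels of different genes were compared per kilobase of exon, as CPM divided by the length of all exons of the gene. Anxa7 came first at 8.23 ± 0.370 CPM per kb in WT (SD, n = 3), followed by Anxa6 at 5.14 ± 1.32, S100a10 at 4.40 ± 0.664, Anxa11 at 3.50 ± 0.162 and Anxa5 at 2.496 ± 0.491. These 5 lay around the median of the 13834 protein-coding genes tested, 3.48 CPM per kb. A long step separated them from Anxa4 at 0.164 ± 0.172, Ahnak at 0.101 ± 0.0585, Anxa2 at 0.0306 ± 0.0321 and Anxa3 at 0.0111 ± 0.0109 CPM per kb. Of the coding genes tested, 55.3% lay below S100a10, and 5.76% lay below Ahnak.

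Some neighbours in this order did not differ beyond their spread. Anxa7 lay above Anxa6 in 7 of 8 libraries, cKO 4 excepted. Anxa6 lay above S100a10 in 5 of 8 libraries and in 1 of 3 WT libraries, and with the length of the longest transcript in place of all exons S100a10 came before Anxa6. S100a10 lay above Anxa11, and Anxa11 above Anxa5, and Anxa5 above Anxa4, in all 8 libraries. Anxa4 and Ahnak overlapped, with Anxa4 higher in 5 of 8, and Ahnak lay above Anxa2 in 7 of 8. Anxa2 and Anxa3 could not be ordered at this depth.

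**Figure D2:**
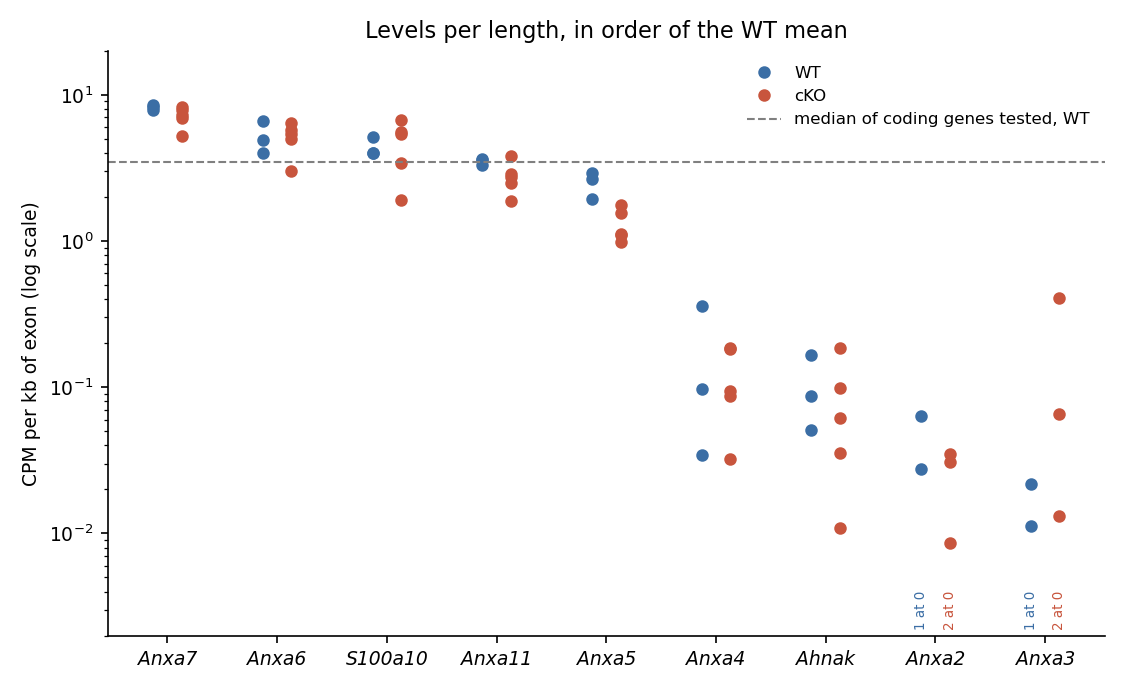
Level per kilobase of exon (vertical axis, log scale, CPM per kb) of the 9 genes in order of the WT mean, with 1 point per library (WT blue, cKO red) and the number of libraries at 0 written below; the dashed line is the WT median of protein-coding genes tested, 3.48 CPM per kb. The 5 genes on the left lie within a few-fold of that line, and the 4 on the right lie far below it.

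The other annexins, fixed as a list of 5, gave 2 genes that could be tested. Anxa1, known as a glucocorticoid-induced mediator that limits inflammation, had 0, 2 and 0 counts in WT 1, 2 and 3. In cKO 1 to 4 the counts were 7, 41, 13 and 33, and the library labelled cKO 5 held 0. The ratio of summed counts per scaled depth was 27.9 (exact 95% interval 7.5 to 233, counting error only). All cKO libraries but the library labelled cKO 5 were thus above WT, and with it the groups overlapped. The unadjusted edgeR p was 0.0165, the adjusted p was 0.503, the fitted value depends on the prior count, and the exact permutation p was 0.107. Anxa1 passed the low-count filter only through cKO libraries. It fell below that filter without cKO 2, cKO 3 or cKO 4, and over the 6 libraries. These p-values and the ratio thus belong to a gene kept for its cKO counts, and no difference is drawn from them. Anxa9, at 3 to 37 counts, was at 0.06 (SE 0.93; adjusted p = 0.991 by edgeR) on the log2 scale, and at 0.018 over the 6 libraries. Anxa8 and Anxa10 had 0 counts in every library, and Anxa13 had 2 counts in cKO 1 and 0 elsewhere.

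The other S100 genes, 15 in the list and 6 tested, had a median log2 fold change of 0.18, against 0.02 over all genes tested. Of the 6, 0 had an unadjusted p under 0.05 by edgeR, against 8.72% of all genes tested, a share too small to expect many among 6. S100b, in brain mainly a gene of astrocytes, averaged 5.73 ± 0.704 CPM over WT (SD, n = 3) and 6.11 ± 2.18 over cKO (SD, n = 5). S100a11, the S100 partner of annexin A1, was at 0.26 (SE 0.54; adjusted p = 0.929 by edgeR). S100a6, the partner of annexin A11, had 1, 6 and 21 counts in WT and 69, 134, 41, 2 and 15 counts in cKO 1 to 5, so that cKO 1 to 3 were high and cKO 4 and the library labelled cKO 5 were within the WT range. On the log2 scale it was at 2.40 (SE 1.152; adjusted p = 0.581 by edgeR). S100a16 was at 2.42 (SE 1.49), with 122 of its 194 cKO counts in cKO 4, and was at 1.56 over the 6 libraries. Over those 6, S100b was at -0.23 and S100a11 at -0.049. S100a6, with 1, 6 and 21 WT counts, and S100a16, with 0, 9 and 12, passed the low-count filter only with the help of cKO libraries. No difference is drawn from their fold changes or from the median of the list, which includes them.

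The proteins that p11 binds or carries formed a list of 13 genes, of which 8 were tested, 7 of them above 0 and 1 below, with a median log2 fold change of 0.33, and 1 of 8 had an unadjusted p under 0.05, against 8.72% of all genes tested. Asic1, an acid-sensing ion channel whose surface level p11 raises, gave 10.7, 9.62 and 8.41 CPM in WT 1, 2 and 3 and 11.1, 13.2, 13.9, 12.6 and 12.8 CPM in cKO 1 to 5. All 5 cKO libraries lay above WT, as at 3.38% of all genes tested. Its log2 difference was 0.41 (SE 0.18), with p = 0.0385 before and 0.558 after adjustment by edgeR, and 0.0179 by exact permutation. Htr1b and Htr4, the serotonin receptors that p11 carries to the surface, averaged 13.2 ± 3.87 and 5.45 ± 0.272 CPM over WT (SD, n = 3) and 15.8 ± 7.96 and 7.23 ± 2.56 over cKO (SD, n = 5). Their log2 differences were 0.26 (SE 0.38) and 0.41 (SE 0.29), with adjusted p = 0.889 and 0.734 by edgeR, and over the 6 libraries they were at -0.36 and 0.13. Without cKO 4 alone Htr4 was at 0.17. Grm5, a metabotropic glutamate receptor, was at 0.015 (SE 0.11) and Dlc1 at -0.05 (SE 0.11), and over the 6 libraries they were at -0.011 and -0.0079.

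All 9 genes in the list of Ahnak partners and relatives were tested, with a median of -0.01, and 2 of 9 had an unadjusted p under 0.05, 1 in each direction, against 8.72% of all genes tested (5.02% higher and 3.7% lower). Cacnb3 and Cacnb4 encode beta subunits of voltage-gated calcium channels, the class of protein through which AHNAK meets these channels. Cacnb3 averaged 135 ± 13.2 CPM over WT (SD, n = 3) and 167 ± 24.7 over cKO (SD, n = 5), a log2 difference of 0.30 (SE 0.13; adjusted p = 0.562 by edgeR). Cacnb4 averaged 327 ± 34.4 CPM over WT (SD, n = 3) and 279 ± 15.6 over cKO (SD, n = 5), a log2 difference of -0.23 (SE 0.09; adjusted p = 0.548 by edgeR). The groups overlapped at both genes. Cacnb1 was at 0.28 (SE 0.14), Cacnb2 at -0.01 (SE 0.11), and the channel genes Cacna1c and Cacna1d at -0.06 (SE 0.13) and -0.04 (SE 0.14). The EF-hand partners of annexins A7 and A11, Pdcd6, Sri and Pef1, lay at -0.13 (SE 0.11), -0.15 (SE 0.12) and 0.09 (SE 0.17), with none of 3 at an unadjusted p under 0.05. Over the 6 libraries Cacnb1 was at 0.095, Cacnb2 at -0.15, Cacna1c at -0.029, Cacna1d at -0.11, Sri at -0.073 and Pef1 at -0.12. Nrsn2, which encodes a neuronal vesicle protein, was at 1.496 (SE 0.18; adjusted p = 0.0880 by edgeR) on the same scale, short of the threshold, and passed it in 6 alternatives, with adjusted p from 6.34e-12 (DESeq2) to 0.0482 (edgeR without scaling factors). Gm14164, on the opposite strand, shares 241 of the 1455 exon bases of Nrsn2. It had 211 to 286 counts in WT and more in every cKO library, up to 1249. As the counting is not stated to use strand, reads from the shared bases cannot be assigned to 1 gene of the pair.

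**Figure D3:**
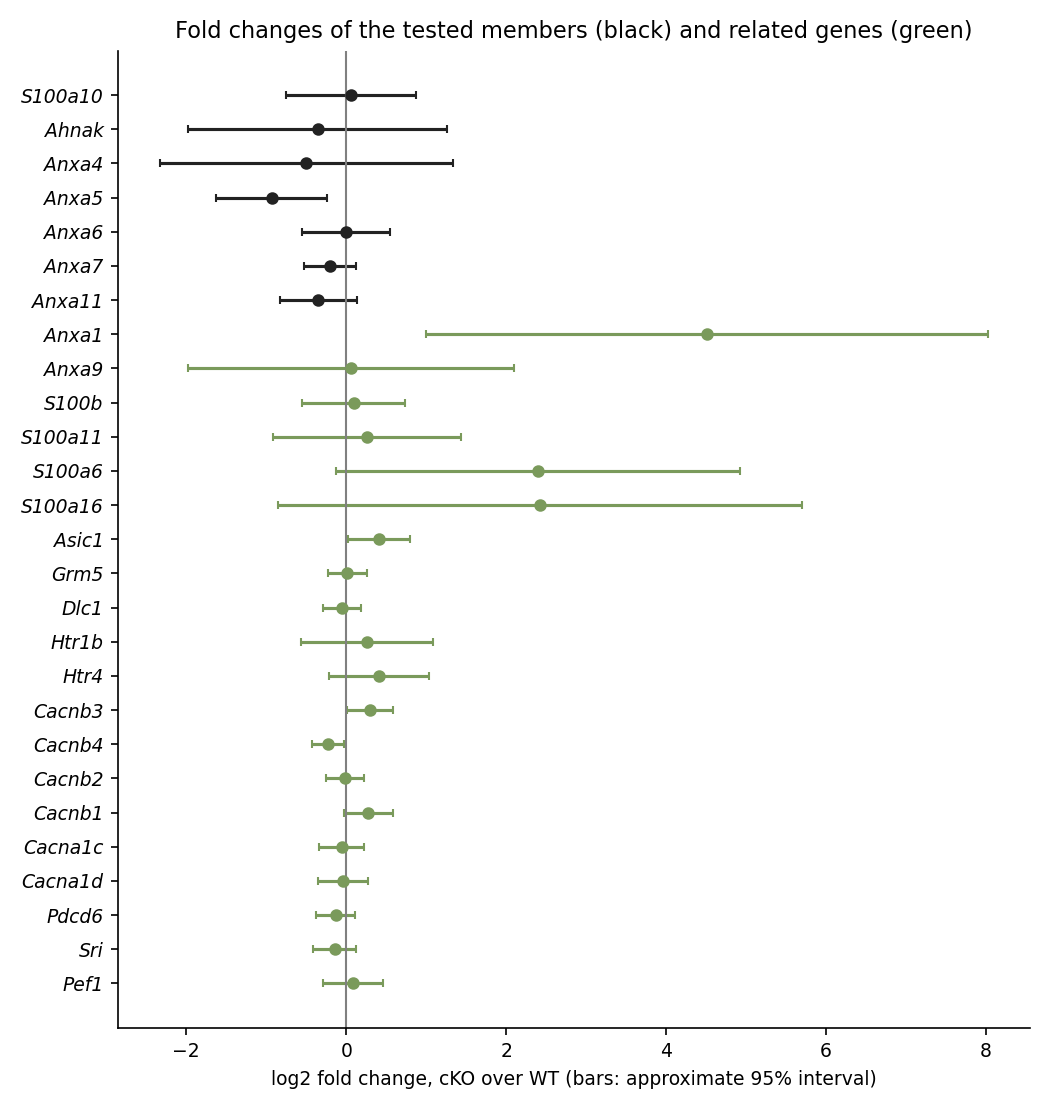
Log2 fold change of cKO over WT (horizontal axis) for the 7 genes tested (black) and for related genes named by a fixed rule (green), with approximate 95% intervals as bars. The interval of Anxa5 lies below 0, from -1.63 to -0.24, before adjustment, while the intervals of S100a10 and Ahnak reach to both sides of 0.

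Likeness of pattern was measured as the root mean square difference of log2 CPM, each gene centred on its own mean over the 8 libraries, among 12086 protein-coding genes with a mean of at least 1 CPM. The 3 genes nearest to S100a10 were Fhl1, Gng5 and Kdm5d, at 0.162, 0.166 and 0.171. The 3 nearest to Ahnak were Ehd2, Fam43a and Zfp503, at 0.330, 0.332 and 0.335. The points of such a comparison share their libraries and depth, and S100a10 and Ahnak differed from each other in which cKO library was highest, cKO 3 for S100a10 and cKO 4 for Ahnak, while the library labelled cKO 5 was lowest for both.

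**Figure D4:**
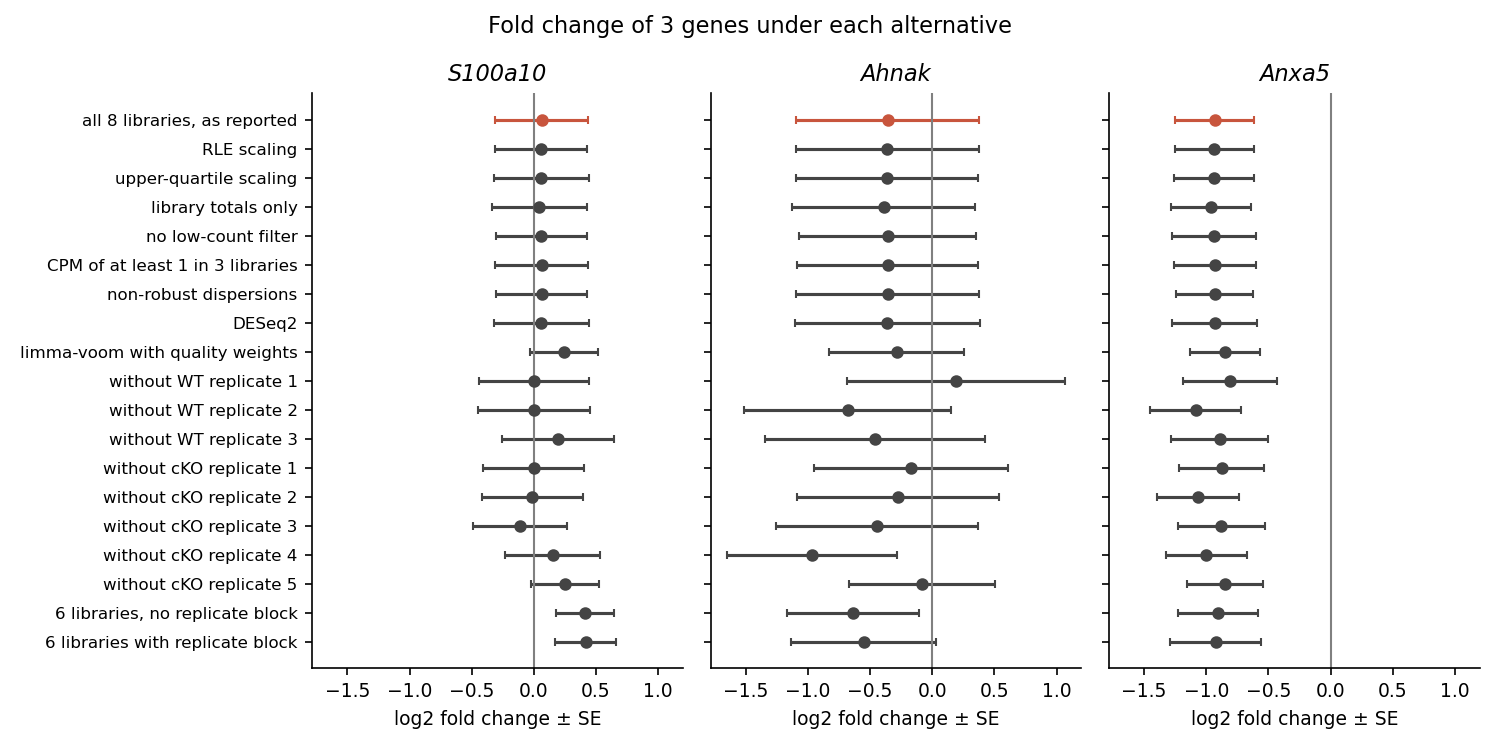
Log2 fold change ± SE (horizontal axes, shared) of S100a10, Ahnak and Anxa5 in the comparison as reported (red) and under each of 18 alternatives (grey), named on the left. Values for Anxa5 stay between -1.08 and -0.81, those for S100a10 run from -0.11 to 0.42, and those for Ahnak from -0.97 to 0.19.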

How the data were processed

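RNA from TRAP pull-downs was sequenced in 3 WT and 5 cKO libraries. The deposited values are raw counts per Ensembl gene. Per the submitters' processing notes the authors used STAR 2.5.3a, HTSeq and the build mm10; the annotation release, strandedness and filters are not given in the sources used here. Symbols (37693 of 39017 genes, 96.6%), positions and lengths came from GENCODE vM21 of the same build.

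Counts were fitted by edgeR 4.0.16 under R 4.3.3 (trimmed-mean scaling, filterByExpr by group, robust quasi-likelihood, two-sided), with Benjamini-Hochberg adjustment over 17654 genes. Genes were named by a rule: the 9 genes, Hltf, Cck and Nrsn2, list genes at an unadjusted p under 0.05, up to 4 others per list by CPM, and the 3 of nearest pattern. The genes and lists were chosen with earlier results of these data known. The approximate 95% intervals come from the SE and the t distribution; log2 CPM used a prior count of 2. Alternatives were other scalings, filters and dispersions, DESeq2 1.42.0, limma-voom (limma 3.58.1), each library left out and 6 libraries with and without the replicate number. S100a10, Ahnak, Anxa2, Anxa3, Anxa4 and Anxa5 had 0 to 420 counts per library. Plots and values used matplotlib 3.10.9 under Python 3.11.15.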

Additional observations from a re-analysis of the deposited data

Results flagged for a closer look

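In the 5 cKO libraries, 6 of 32 named genes had 1 library far from the other 4, judged by the gap to its nearest neighbour as a part of the whole range. Chance flags about 1 in 20 where values are normal and genes independent. These genes share libraries and some lie near 0, so that rate cannot be set against 6 of 32. Anxa3 was at 1.49 CPM in the library labelled cKO 5, while the other cKO values ran from 0 to 0.238 CPM; the gap was 0.841 of the range. Hltf was at 11.4 CPM there, a gap of 0.737, and S100b at 9.89 CPM, a gap of 0.728. In cKO 4, S100a16 was at 2.63 CPM (gap 0.733), Htr4 at 11.7 CPM (gap 0.800) and Pdcd6 at 89.0 CPM (gap 0.732). All 6 lay in the 2 libraries that stood apart in the principal components.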

How the results depend on the processing

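Of 125 recomputed fold changes of the 7 tested genes, 111 kept their direction and stayed short of the threshold, 14 turned in sign and 0 came to pass. Anxa5, Anxa7 and Anxa11 kept their direction in each alternative. With 1 library left out, S100a10 ran from -0.113 to 0.252, Ahnak from -0.966 to 0.189, Anxa4 from -0.98 to 0.818 and Anxa6 from -0.162 to 0.208. With limma-voom Anxa4 was at 0.271 and Anxa6 at 0.128. Over 6 libraries Anxa6 was at 0.061. Adding the replicate number as a block to that fit, Anxa6 was at 0.086, Anxa4 at 0.320, S100a10 at 0.416 and Anxa5 at -0.925, and no call changed. The numbers gave no sign of pairing: over 7548 genes, same-numbered WT and cKO libraries had correlated deviations of r = -0.21, 0.058 and 0.080. In the order of levels, S100a10 moved to place 2 and Anxa6 to place 3 with the longest transcript length.

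Of 406 comparisons for 23 other genes, 365 stayed, 35 turned and 6 came to pass, all of Nrsn2. With limma-voom Anxa9 was at -0.408, S100b at -0.159, Grm5 at -0.036 and Htr1b at -0.032. Over 6 libraries S100b was at -0.234, S100a11 at -0.049, Grm5 at -0.011, Htr1b at -0.36 and Pef1 at -0.122, and with the replicate block Anxa9 was at -0.108, S100b at -0.228, Grm5 at -0.020, Htr1b at -0.346 and Pef1 at -0.122. Without scaling factors Grm5 was at -0.018. With 1 library left out, Anxa9 ran from -0.32 to 0.824, S100b from -0.154 to 0.19, S100a11 from -0.048 to 0.972, Grm5 from -0.04 to 0.074, Dlc1 from -0.103 to 0.018, Htr1b from -0.022 to 0.473, Cacnb2 from -0.07 to 0.031, Cacna1d from -0.124 to 0.037 and Pef1 from -0.008 to 0.189. The cause of these turns was not tested.

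Genes called higher and lower over the whole table numbered 1 and 0 without scaling factors, 2 and 0 when no filter or a filter of 1 CPM in 3 libraries was used and at an adjusted p under 0.1, 68 and 40 by DESeq2, 3 and 1 by limma-voom, 5 and 5 over 6 libraries (0 and 0 once blocked), and 0 and 0 with any 1 library left out. Genes at an unadjusted p under 0.05 numbered 847 to 2034 with 1 library left out. DESeq2 gave no adjusted p for Ahnak and Anxa4. Depth limits Anxa2 and Anxa3: without a filter Anxa2 was at -0.9999 (SE 1.56) and Anxa3 at 3.01 (SE 1.90), with edgeR adjusted p of 0.849 and 0.651.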
